A study of Arabidopsis thaliana with 18 samples.

Results

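The 10 Argonaute genes of Arabidopsis thaliana, AGO1 to AGO10, were described across 18 RNA-seq libraries of the male gametophyte. They were chosen by their locus identifiers and not by their values. All 10 had an entry in the gene table of pollen nuclei, which lists 28424 entries, and 8 had one in that of late microspores, which lists 24292, where AGO3 and AGO8 were not listed. After a filter that asked for 1 FPKM in no fewer than 3 libraries per table, 8 of the 10 were tested in pollen (all but AGO3 and AGO7) and 7 in microspores (all but AGO7 of those listed).

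The libraries formed 6 groups of 3, all in the Col-0 background and grown in long days. The line labelled V-Mt makes REF6, an enzyme that removes methyl groups from lysine 27 of histone H3, as a GFP fusion from the LAT52 promoter (pLat52:REF6-GFP), which is active in the vegetative cell of pollen. It also carries a sperm marker, a histone under the HTR10 promoter fused to RFP, which the labels number from HTR10 upward to HTR15 over the V-Mt pollen libraries and name HTR10 in V-Mt microspores. The WT pollen line carries pHTR10:HTR10-RFP and pACTIN11:H2B-GFP, and the WT microspore line carries pHTR10:HTR10-RFP alone, so every group held an RFP histone marker and the GFP fusion differed between V-Mt and WT. Vegetative nuclei (VC) were sorted from mature pollen by GFP and sperm nuclei (SC) by RFP. Late microspores (LMS), the single-celled stage before the vegetative and generative cells are set apart, were sorted whole by green autofluorescence, with grains that showed RFP left out. Polyadenylated RNA was taken from the nuclei and total RNA from microspores. In such bulk samples fewer nuclei of a kind and less RNA per nucleus cannot be told apart. Nothing in the labels ties replicates to different plants, so the p-values speak only for the spread among these libraries, which may be technical.

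Argonaute proteins hold a small RNA as a guide and act on transcripts or chromatin that pair with it. The plant family falls into 3 clades. AGO1, AGO5 and AGO10 form the first, in which AGO1 is the main carrier of microRNAs, AGO10 withholds certain microRNAs from AGO1 in the shoot meristem, and AGO5 is known from reproductive cells. AGO2, AGO3 and AGO7 form the second, in which AGO2 takes part in antiviral defence and AGO7 holds miR390 in the making of trans-acting small RNAs. AGO4, AGO6, AGO8 and AGO9 form the third, in which AGO4 and AGO6 direct DNA methylation with heterochromatic small RNAs, AGO9 is known from the cells around the female germline precursor, and AGO8 is often regarded as a pseudogene.

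Some Argonaute transcripts are themselves microRNA targets, and these sequences are shown because AGO1 and AGO2, which carry such sites, are among the members whose levels differed between groups. The mature microRNAs, read from the RefSeq annotation of the TAIR10.1 assembly, are given first, with the seed (bases 2 to 8) in capitals. Below them stand the sites in the transcripts, written 5′ to 3′ as DNA, with the bases opposite the seed in capitals.
ath-miR168a-5p: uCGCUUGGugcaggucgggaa
ath-miR403-3p: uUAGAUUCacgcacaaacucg
AGO1 site: ttcccgagctgcaTCAAGCTa
AGO2 site: ggagtttgtgcgtGAATCTAa
AGO3 site: gatgtttgtgcgtGAATCTAa
The miR168a strand lies at chr4:10578652-10578672 (plus strand), and miR168b has the same mature sequence at chr5:18358873-18358893 (minus strand). The miR403 strand lies at chr2:19415154-19415174 (plus strand). The AGO1 site is in the coding part, at chr1:17891529-17891549 (minus strand), and 3 of its 21 positions are not Watson-Crick pairs, of which 1 is a G-U pair and 2 lie in the seed. The AGO2 site is in the 3′ UTR at chr1:11185223-11185243 (plus strand), with 1 such position. The AGO3 site is in the 3′ UTR at chr1:11192399-11192419 (plus strand), with 3 such positions, and neither AGO2 nor AGO3 has one in the seed. The primary transcripts of miR168, miR403 and miR390 are not among the entries of either gene table, and mature small RNAs were not analysed here.

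AGO4 and AGO5 were among the members with the highest levels, and the 250 bases before their annotated starts are shown so that the genes can be compared at the sequence level. They were read from TAIR10.1, on the strand of the gene, and searched on either strand for matches to the TATA box (TATAAA), to the site of the sperm factor DUO1 (AACCGC or AACCGT) or to the site REF6 is known to bind (CTCTGCTC, CTCTGCTT, CTCTGTTC or CTCTGTTT).
AGO4 promoter: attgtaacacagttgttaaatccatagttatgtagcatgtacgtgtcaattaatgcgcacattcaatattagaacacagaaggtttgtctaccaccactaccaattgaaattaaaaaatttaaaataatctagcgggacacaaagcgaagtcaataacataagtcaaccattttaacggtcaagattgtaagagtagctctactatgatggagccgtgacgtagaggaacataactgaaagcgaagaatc
AGO5 promoter: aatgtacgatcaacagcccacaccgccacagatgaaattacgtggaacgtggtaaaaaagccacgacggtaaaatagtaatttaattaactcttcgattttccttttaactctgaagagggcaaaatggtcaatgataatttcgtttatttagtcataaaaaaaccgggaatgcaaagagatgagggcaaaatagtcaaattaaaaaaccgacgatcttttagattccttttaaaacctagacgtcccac
The AGO4 stretch is chr2:11542392-11542641 (minus strand) and that of AGO5 is chr2:11871128-11871377 (plus strand). Both hold none of the 3 motifs, so no letters are in capitals. Of 27444 promoters of this length, 47.3% held the TATA match, 10.4% a DUO1 match and 5.8% a REF6 match. The AGO3 stretch of this length had 1 DUO1 match and 1 REF6 match. Within gene bodies, AGO9 held 4 REF6 matches, AGO10 held 3 and AGO5 held 2, AGO6 held 0, and each of the other 6 held 1. Per kilobase this came to 0.651 in AGO9, 0.487 in AGO10 and 0.356 in AGO5, against a median of 0.274 over genes, and 73.3% of genes lay below AGO9. The other members lay below that median, at 0 to 0.257, with AGO4 at 0.17.

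The genes lie on chromosomes 1 (AGO1, AGO2, AGO3 and AGO7), 2 (AGO4, AGO5 and AGO6) and 5 (AGO8, AGO9 and AGO10). AGO2 (AT1G31280, chr1:11181504-11185396) and AGO3 (AT1G31290, chr1:11188120-11192585) are neighbours on the plus strand, with 3 and 4 exons, and AGO7 (AT1G69440, chr1:26101407-26105328, minus strand) has 3. AGO1 (AT1G48410, chr1:17885633-17892632, minus strand) has 22 exons, AGO5 (AT2G27880, chr2:11871378-11876989, plus strand) has 20 and AGO10 (AT5G43810, chr5:17610744-17616907, plus strand) has 20. AGO4 (AT2G27040, chr2:11536502-11542391, minus strand), AGO6 (AT2G32940, chr2:13971916-13977521, minus strand) and AGO9 (AT5G21150, chr5:7192239-7198381, plus strand) have 23 each. AGO8 (AT5G21030, chr5:7139817-7144272, minus strand) has 21, and TAIR10.1 lists its locus without this symbol. No annotated gene overlaps any of the 10, and no stretch of 50 bases of their annotated transcripts recurs in a transcript of another gene, so reads of that length that match a member fully have 1 source in the annotation.

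Levels are FPKM, a fragment count per kilobase that is scaled by library size. Estimated depth was 9500000 to 24000000 fragments in the pollen libraries and 1900000 to 3200000 in the microspore libraries, so 1 fragment on a member was worth 0.011 to 0.044 FPKM in pollen and 0.085 to 0.22 FPKM in microspores. REF6 itself stood at 1303, 2248 and 3001 FPKM in V-Mt VC and at 1.1, 0.42 and 0.48 in WT VC. In V-Mt SC it stood at 28.9, 58.4 and 436, and in WT SC at 24.6, 23.2 and 10.8. In microspores it stood at 1160, 1175 and 506 FPKM in V-Mt and at 77.7, 108 and 125 in WT. The 6 sperm markers summed to 5590 to 14150 FPKM in the SC libraries, to 152.2 to 154.5 in V-Mt VC and to 70.94 to 96.2 in WT VC. The 6 vegetative markers summed to 3409 to 4015 FPKM in the WT VC libraries, while V-Mt VC had 799.9 to 896.3 and the SC libraries 475.6 to 1379. Most of the V-Mt VC sum was VGD1 (mean 744.3 FPKM, against 544.8 in V-Mt SC). BUPS1 had means of 35.1 in V-Mt VC and 100.2 in V-Mt SC, ANX2 40.4 and 68.2, and CPK34 9.07 and 38.2. PRK6 (10.7 and 11.7) and ANX1 (13.3 and 10.3) were close between these nuclei. Of the 4 microspore markers, MYB81 and SCP were highest in LMS, while LBD10 and BZIP34 were highest in WT VC, so the list as a whole did not mark the microspore libraries. An entry at 1 FPKM or more was found 8093 to 8386 times in WT VC libraries and 18735 to 18932 times in V-Mt VC libraries.

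**Figure D1:**
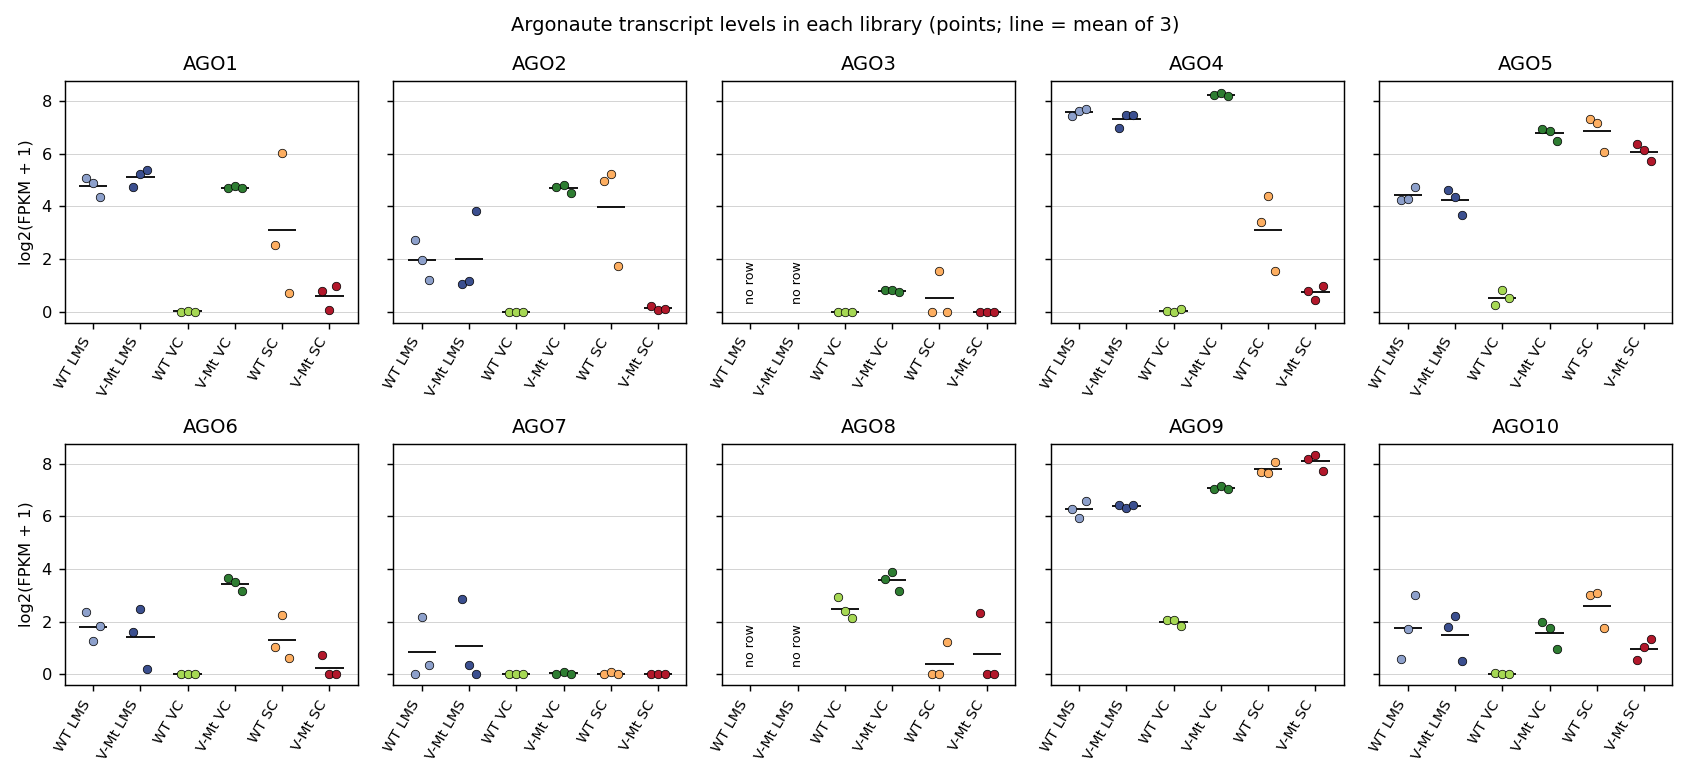
Level of each Argonaute gene in each library, as log2(FPKM + 1), in 1 panel per gene; points are libraries, coloured by group, and lines are means of 3. AGO4 and AGO9 stand high in microspores and in V-Mt VC, AGO5 and AGO9 stand high in both sperm groups, and every gene but AGO8 and AGO9 is under 1 FPKM in WT VC; microspores come from a separately normalized table.

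In WT pollen, AGO5 and AGO9 were the Argonautes of sperm nuclei, and WT vegetative nuclei held little of any Argonaute. AGO5 stood at 160, 143 and 66.6 FPKM in WT SC and at 0.2, 0.76 and 0.44 in WT VC. AGO9 stood at 206, 198 and 269 FPKM in WT SC and at 3.19, 3.2 and 2.62 in WT VC. All 3 sperm libraries lay far above all 3 vegetative ones for both genes. The difference on the log2(FPKM + 1) scale was 6.32 (SE 0.36, limma adjusted p = 2.79e-07) for AGO5 and 5.80 (SE 0.22, limma adjusted p = 3.42e-08) for AGO9.

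The other Argonautes of WT sperm nuclei were lower and uneven between libraries. AGO2 stood at 30.5, 36.7 and 2.38 FPKM in WT SC and had a listed value of 0 in each WT VC library. AGO4 stood at 9.73, 20.1 and 1.89 FPKM in WT SC against 0.02, 0 and 0.08 in WT VC. AGO10 stood at 7.06, 7.48 and 2.37 FPKM in WT SC against 0.03, 0 and 0.01 in WT VC. The third WT SC library was the lowest for AGO2, AGO4 and AGO10, and no WT SC library overlapped WT VC. The differences were 3.99 (SE 0.74, limma adjusted p = 0.00148) for AGO2, 3.07 (SE 0.58, limma adjusted p = 0.00169) for AGO4 and 2.60 (SE 0.41, limma adjusted p = 4.62e-04) for AGO10.

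AGO1, the main microRNA carrier, stood at 4.8, 64.7 and 0.63 FPKM in WT SC and at 0, 0.03 and 0 in WT VC, so 1 sperm library held most of it. AGO6 stood at 1.06, 3.78 and 0.56 FPKM in WT SC and at 0, 0.02 and 0 in WT VC. AGO8 went the other way, with 0, 0 and 1.38 FPKM in WT SC and 6.77, 4.26 and 3.47 in WT VC. The log2 differences were 3.08 for AGO1 (SE 1.02, limma adjusted p = 0.0334), 1.3 for AGO6 (SE 0.39, limma adjusted p = 0.0219) and -2.09 for AGO8 (SE 0.63, limma adjusted p = 0.0217). AGO3 was at 1.94 FPKM in the second WT SC library and listed at 0 in the other WT pollen libraries, and AGO7 did not exceed 0.07 FPKM in pollen.

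In all, 7 of the 8 tested Argonautes were called higher and 1 lower in WT SC than in WT VC, where 27.3% of all 19733 tested entries were called higher and 13.1% lower. Their median difference was 3.08 against 0.36 over all tested entries. The third WT SC library differed from the others in other RNA as well. The 5 green tissue markers summed to 27.8, 63.1 and 5.59 FPKM in the 3 WT SC libraries, in the order given, and organelle genes took 0.0432%, 0.0731% and 0.000737% of FPKM. AGO1, AGO2, AGO4, AGO6 and AGO10 followed the order of this sum and of the organelle share. Most of the green sum was RBCS1A (23.55, 38.31 and 2.98 FPKM) and, in the second library, LHCA1 (24.3 FPKM). The other green markers did not follow that order, with PSBO1 at 4.16, 0 and 1.37 FPKM and RCA at 0, 0.5 and 0.39. Nor did the tapetum markers, which summed to 2.39, 0 and 2.14 FPKM. The part of this other RNA in the result was not tested. A refit that left out libraries by their organelle FPKM, chosen after seeing the data, does not separate this RNA from other differences of the third WT SC library. Without the 3 sperm libraries with most organelle FPKM (WT SC 1, WT SC 2 and V-Mt SC 3), which leaves 1 WT SC library assumed to vary like the other groups, AGO2, AGO4, AGO5, AGO9 and AGO10 were called higher. In that fit AGO1 differed by 0.69 (limma adjusted p = 0.111), AGO6 by 0.63 (limma adjusted p = 0.172) and AGO8 by -1.25 (limma adjusted p = 0.282). The AGO2 difference fell to 1.76 (limma adjusted p = 5.39e-04) and that of AGO4 to 1.48 (limma adjusted p = 0.002), while AGO9 stood at 6.08 (limma adjusted p = 7.95e-06). Leaving out the second WT SC library alone gave 1.61 for AGO1 (limma adjusted p = 0.0278). The AGO1 call was lost in 10 of 20 alternatives, that of AGO6 in 6 and that of AGO8 in 5. Leaving out any 1 WT VC library lost the calls of AGO1 (limma adjusted p = 0.0784 to 0.081) and AGO6 (0.0584 to 0.0622), and leaving out any 1 V-Mt VC library lost that of AGO1 (0.0536 to 0.0546). The AGO8 call was lost without WT VC library 1 (limma adjusted p = 0.0745) or 2 (0.0512) and without WT SC library 1 (0.0668) or 2 (0.0634).

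**Figure D2:**
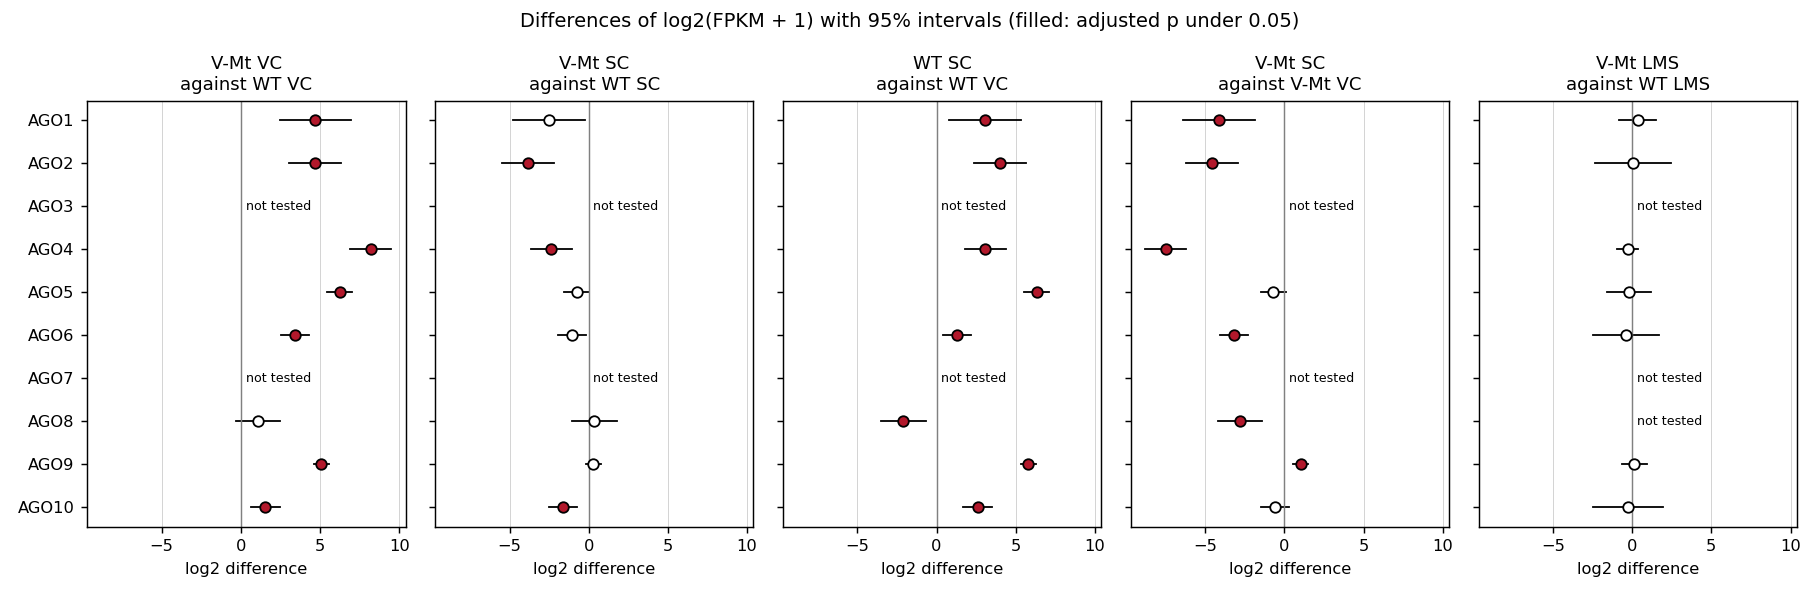
Difference of log2(FPKM + 1) for each Argonaute gene (rows) in 5 comparisons (panels); points are fitted differences, lines are 95% intervals, and filled points passed the threshold on the adjusted p. In V-Mt VC against WT VC, 7 of 8 tested genes lie to the right of 0 and are filled, and in microspores all 7 intervals cross 0.

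In vegetative nuclei of the V-Mt line, AGO4 was the most abundant Argonaute and 7 of the 8 tested genes were higher than in WT VC. AGO4 stood at 297, 315 and 292 FPKM in V-Mt VC, against 0.02, 0 and 0.08 in WT VC. AGO9 stood at 131, 142 and 129.8 FPKM against 3.19, 3.2 and 2.62, and AGO5 at 121, 117 and 89.6 against 0.2, 0.76 and 0.44. For each of these genes the groups were far apart, and the V-Mt VC libraries lay close together. The log2 differences were 8.19 for AGO4 (SE 0.58, limma adjusted p = 3.53e-07), 5.08 for AGO9 (SE 0.22, limma adjusted p = 1.02e-08) and 6.24 for AGO5 (SE 0.36, limma adjusted p = 6.24e-08).

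AGO1 and AGO2, which carry microRNA sites, were lower than these but above AGO6, AGO8 and AGO10, with V-Mt VC libraries again close together. AGO1 stood at 24.9, 26.1 and 24.9 FPKM in V-Mt VC and AGO2 at 25.5, 27.1 and 21.9, where WT VC had at most 0.03 FPKM of AGO1 and was listed at 0 for AGO2. AGO3, the neighbour of AGO2, also carries a miR403 site. It stood at 0.78, 0.76 and 0.7 FPKM in V-Mt VC against a listed 0 in each WT VC library, but it did not pass the filter and was not tested. The difference was 4.70 for AGO1 (SE 1.02, limma adjusted p = 0.00168) and 4.69 for AGO2 (SE 0.74, limma adjusted p = 1.86e-04).

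AGO6, the partner of AGO4 in RNA-directed DNA methylation, stood at 11.6, 10.4 and 8.05 FPKM in V-Mt VC and differed by 3.44 (SE 0.39, limma adjusted p = 1.56e-05). AGO10 stood at 2.94, 2.43 and 0.94 FPKM and differed by 1.55 (SE 0.41, limma adjusted p = 0.00523), though quantile normalization gave -0.13 (limma adjusted p = 0.802). AGO8 stood at 11.4, 13.8 and 8.11 FPKM in V-Mt VC and at 6.77, 4.26 and 3.47 in WT VC. The groups did not overlap for AGO8, and its difference of 1.07 (95% interval -0.33 to 2.46, limma adjusted p = 0.149) did not pass, while quantile normalization gave -1.79 (limma adjusted p = 0.0331) and a fit on the 2 groups alone gave limma adjusted p = 0.00992. Without V-Mt SC library 1 its limma adjusted p was 0.0372. AGO7 was at 0, 0.06 and 0.02 FPKM.

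These rises stood against a shift of most of the table: 62.5% of all tested entries were called higher and 10.8% lower in V-Mt VC, and the median over all tested entries was 1.92. The median of the 8 Argonautes was 4.70. AGO1, AGO2, AGO4, AGO5, AGO6 and AGO9 lay above the median of all entries, and AGO8 and AGO10 lay below it. The median of all entries was 1.38 under median-ratio scaling and 0.18 under quantile normalization, with 77% and 56.7% of calls higher in place of 85.3%. Under quantile normalization 6 Argonautes were called higher and AGO8 lower, with smaller differences: 7.61 for AGO4, 4.5 for AGO5, 3.42 for AGO9, 3.28 for AGO2, 3.18 for AGO1 and 1.55 for AGO6 (limma adjusted p = 0.00266). Most tested markers of other tissues were also called higher, with exceptions. Green tissue markers summed to 59.48 to 66.2 FPKM in V-Mt VC and 0.66 to 1.18 in WT VC, where RBCS1A, PSBO1 and LHCA1 were at 0. LHCA1 was low in V-Mt VC too (mean 0.33 FPKM). Of the 4 tested, 3 were called higher, and GAPA differed by 0.15 (limma adjusted p = 0.763). Tapetum markers summed to 31.64 to 42.64 FPKM in V-Mt VC and 4.92 to 8.93 in WT VC, where A9, A7 and ACOS5 were at 0. Most of the V-Mt VC sum lay in MS2 (mean 27.2 FPKM) and LAP6 (mean 7.89). A7, ACOS5 and LAP5 had means of only 0.06, 0.26 and 0.077 FPKM there. Of the 4 tested, 3 were called higher and DYT1 lower (-1.97, limma adjusted p = 0.0125). Of the 4 microspore markers, MYB81 (5.04, limma adjusted p = 4.05e-05) and SCP (1.69, limma adjusted p = 8.02e-05) were called higher, and LBD10 (-2.73, limma adjusted p = 0.00232) and BZIP34 (-3.43, limma adjusted p = 9.09e-04) lower. The microspore sum was 87.64 to 111 FPKM in V-Mt VC and 404.7 to 541.9 in WT VC. Of the 6 sperm markers, DUO1 (4.13, limma adjusted p = 1.68e-05), GCS1 (2.73, limma adjusted p = 7.76e-05) and MGH3 (0.85, limma adjusted p = 0.0155) were called higher. GEX1 (-0.78, limma adjusted p = 0.0392) and GEX2 (-0.75, limma adjusted p = 0.0443) were called lower, and DAZ1 (-0.01, limma adjusted p = 0.995) did not pass. Whether these marker levels came from other cells or from the sorted nuclei themselves was not tested, nor was any part of this in the Argonaute levels.

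In V-Mt sperm nuclei AGO5 and AGO9 again stood at high levels, and AGO9 led the pool. AGO9 stood at 293, 324 and 214 FPKM in V-Mt SC, overlapping the WT SC range, with a log2 difference of 0.30 (95% interval -0.19 to 0.79, limma adjusted p = 0.454). AGO5 stood at 82.3, 70.5 and 51.7 FPKM, with a difference of -0.77 (95% interval -1.56 to 0.02, limma adjusted p = 0.223). Neither interval shows that the lines are alike.

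The lower members fell in V-Mt SC or did not pass. AGO2 stood at 0.17, 0.06 and 0.08 FPKM in V-Mt SC, below all 3 WT SC libraries, with a difference of -3.85 (SE 0.74, limma adjusted p = 0.0229). AGO4 stood at 0.73, 0.37 and 0.98 FPKM, with a difference of -2.37 (SE 0.58, limma adjusted p = 0.0457). AGO10 stood at 0.48, 1.04 and 1.55 FPKM, with a difference of -1.63 (SE 0.41, limma adjusted p = 0.0467). No V-Mt SC library reached the lowest WT SC library for AGO2, AGO4 or AGO10. AGO1 stood at 0.75, 0.04 and 0.96 FPKM, overlapping WT SC, and its difference of -2.48 (SE 1.02, limma adjusted p = 0.176) did not pass. AGO6 stood at 0.68, 0 and 0 FPKM (limma adjusted p = 0.137) and AGO8 at 4.07, 0 and 0 (limma adjusted p = 0.808), and AGO3 and AGO7 were listed at 0.

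Thus 0 Argonautes were called higher and 3 lower, where 1.18% of all tested entries were called higher and 3.93% lower, and the median was -1.34 against -0.19. The AGO4 call was lost in 17 of 20 alternatives, that of AGO10 in 19 and that of AGO2 in 5. Leaving out any 1 pollen library other than WT SC 3 lost the calls of AGO4 (limma adjusted p = 0.0646 to 0.113) and AGO10 (0.0516 to 0.114), and leaving out any 1 V-Mt VC library lost that of AGO2 (0.0504 to 0.0526). Without WT SC library 3 there were 6 calls, adding AGO1 (-3.68, limma adjusted p = 0.0147), AGO5 (-1.16, limma adjusted p = 0.0264) and AGO6 (-1.40, limma adjusted p = 0.0358). Without WT SC library 1 there were 0 calls, and without WT SC library 2 there was 1 call, AGO2 (-3.23, limma adjusted p = 0.0466). Without the 3 sperm libraries with most organelle FPKM, AGO2 alone was called (-1.60, limma adjusted p = 0.0207). The replicate block left 1 call. The vegetative markers summed to 475.6, 542.2 and 1302 FPKM in the 3 V-Mt SC libraries, in order. Most of that rise lay in VGD1 (243, 308 and 1084 FPKM). BUPS1 (102.8, 72.1 and 125.7 FPKM) was also highest in the third library, which held the most REF6. CPK34 (56.3, 55.4 and 2.8 FPKM) and PRK6 (10.4, 19.6 and 5.09 FPKM) were lowest there. ANX2 (49.74, 79.85 and 75.07 FPKM) and ANX1 (13.18, 7.71 and 10.03 FPKM) were neither highest nor lowest there.

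Within the V-Mt line, AGO4 and AGO9 were divided between the nuclei in opposite directions. AGO4 was lower in V-Mt SC than in V-Mt VC by a log2 difference of -7.50 (SE 0.58, limma adjusted p = 7.39e-07), and AGO9 was higher by 1.02 (SE 0.22, limma adjusted p = 0.00177). AGO1 (-4.10, SE 1.02, limma adjusted p = 0.00409), AGO2 (-4.54, SE 0.74, limma adjusted p = 2.45e-04), AGO6 (-3.20, SE 0.39, limma adjusted p = 2.88e-05) and AGO8 (-2.79, SE 0.63, limma adjusted p = 0.00226) were lower in sperm nuclei. AGO5 differed by -0.69 (95% interval -1.48 to 0.10, limma adjusted p = 0.106), although its lowest V-Mt VC library lay above its highest V-Mt SC library, and its call was gained without WT SC library 3 (limma adjusted p = 0.0386) and under sum scaling (-1.02, limma adjusted p = 0.0225). AGO10 overlapped between the nuclei and differed by -0.59 (limma adjusted p = 0.214), and by 1.16 (limma adjusted p = 0.0189) under quantile normalization, and by -0.77 (limma adjusted p = 0.0474) without the 3 sperm libraries with most organelle FPKM. In total 1 Argonaute was called higher and 5 lower, where 13.4% of all tested entries were called higher and 58% lower, and the median was -3 against -1.72. Under quantile normalization the calls of AGO1 (-2.18, limma adjusted p = 0.0737) and AGO8 (-1, limma adjusted p = 0.212) were lost.

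The effect of the V-Mt line differed between the nuclei for 7 of the 8 tested Argonautes, where 60.5% of all tested entries were called higher in this contrast and 7.18% lower. The difference of effects (V-Mt against WT in VC, minus the same in SC) was 10.57 for AGO4 (SE 0.83, limma adjusted p = 1.50e-06) and 7.01 for AGO5 (SE 0.50, limma adjusted p = 8.39e-07). It was 4.79 for AGO9 (SE 0.31, limma adjusted p = 4.57e-07), and 0.70 for AGO8 (SE 0.89, limma adjusted p = 0.503), which did not pass. The median over the 8 was 5.90 against 2.24 over all entries. The 5 pollen comparisons share libraries, so their values are set side by side and not as separate evidence.

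In late microspores AGO4 led, followed by AGO9, AGO1 and AGO5, and no Argonaute differed between the lines past the threshold. AGO4 stood at 124, 177 and 177 FPKM in V-Mt LMS and at 174, 196 and 209 in WT LMS, a difference of -0.29 (95% interval -0.94 to 0.36, limma adjusted p = 0.907). AGO9 stood at 84.9, 79.95 and 86.6 FPKM in V-Mt LMS and at 77.4, 60.4 and 94.4 in WT LMS, a difference of 0.14 (95% interval -0.67 to 0.94, limma adjusted p = 0.974). The lines overlapped for both genes. AGO1 stood at 26.0, 36.3 and 40.4 FPKM in V-Mt LMS and at 32.97, 28.5 and 19.3 in WT LMS, and AGO5 at 23.9, 19.8 and 11.8 against 17.8, 18.7 and 25.8. AGO2, AGO6, AGO7 and AGO10 ranged from 0 to 13.1 FPKM over the 6 libraries, and their order changed from library to library. Of 18002 tested entries 0% were called by limma (1195 had an unadjusted p under the same threshold), and the 7 Argonautes had limma adjusted p from 0.907 to 0.997. REF6 itself was not called either (limma adjusted p = 0.193), at a log2 difference of 3.11 with no overlap of the lines. The absence of calls therefore does not show that the lines are alike. The widest interval, that of AGO2 from -2.33 to 2.43, leaves room for differences of several fold. Microspore libraries held 4134 to 8552 FPKM of green tissue markers, 983.2 to 1508 of tapetum markers and 6.38% to 10.0% of FPKM in organelle genes, whose part in the Argonaute levels was not tested.

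**Figure D3:**
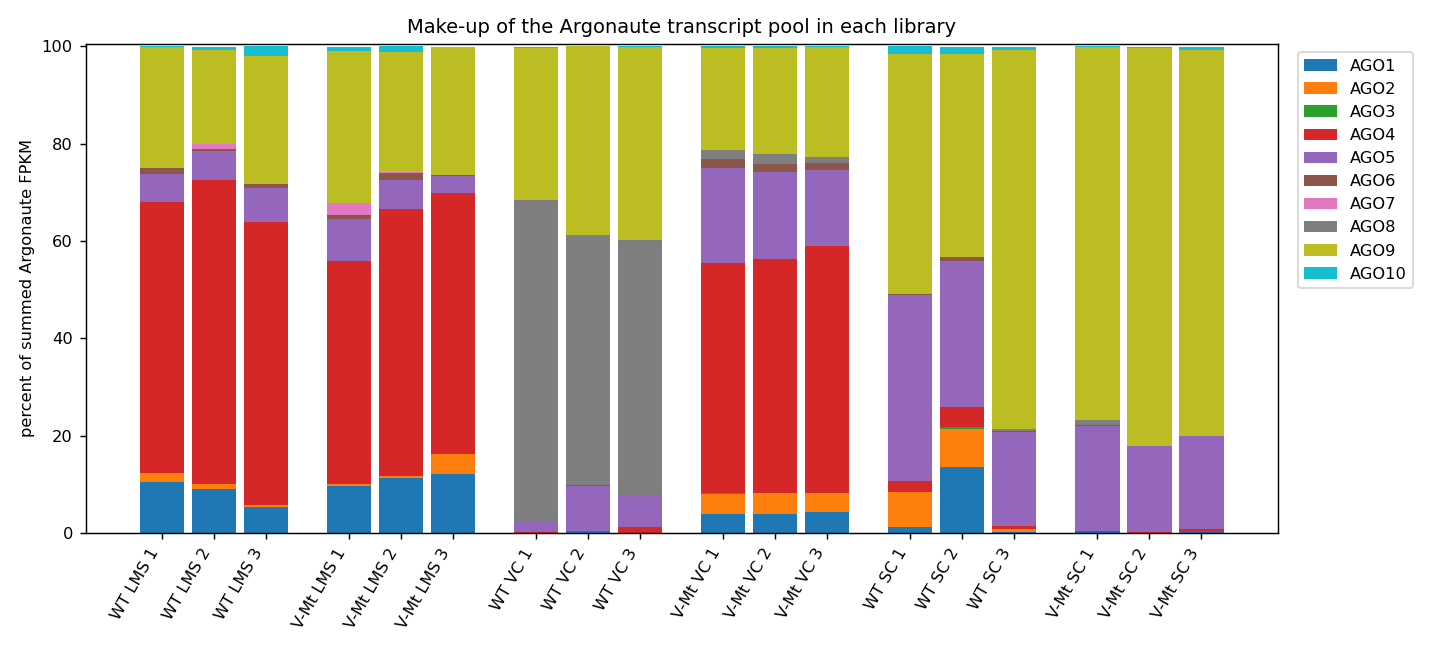
Share of each Argonaute gene in the summed Argonaute FPKM of each library, in percent; each bar is 1 library and colours are genes, with AGO3 and AGO8 not listed in microspores. AGO4 takes the largest share in both LMS groups and in V-Mt VC, AGO9 in V-Mt SC and WT SC, and AGO8 in WT VC, where the summed level is only 6.62 to 10.21 FPKM.

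Shares within a library are not moved by scaling between libraries, so they are set side by side across both tables, without a test. Other things did differ between the tables, and their part in the shares and ranks was not tested. RNA was polyadenylated from nuclei but total from whole microspores, and AGO3 and AGO8 had no microspore entry. Much of the pollen level also lay in isoforms assembled by the authors. In WT LMS, AGO4 made up 58.8% ± 3.44 of the summed Argonaute FPKM, AGO9 23.4% ± 3.7, AGO1 8.33% ± 2.68 and AGO5 6.27% ± 0.779 (SD, n = 3). V-Mt LMS was close to this, with AGO4 at 51.4% ± 4.89, AGO9 at 27.5% ± 3.42, AGO1 at 11% ± 1.33 and AGO5 at 6.18% ± 2.62 (SD, n = 3). V-Mt VC likewise had AGO4 at the top (48.8% ± 1.74), followed by AGO9 (21.7% ± 0.788). Unlike in LMS, AGO5 (17.6% ± 1.92) there stood above AGO1 (4.09% ± 0.198, SD, n = 3). In V-Mt SC, AGO9 took 79.3% ± 2.58 and AGO5 19.5% ± 1.89 (SD, n = 3). In WT SC the shares varied: AGO9 took 49.2%, 41.6% and 78.0% and AGO5 38.2%, 30.0% and 19.3% in the 3 libraries. The third WT SC library was the one nearest the V-Mt SC shares. In WT VC the small pool was AGO8 at 56.7% ± 8.29 and AGO9 at 36.5% ± 4.58 (SD, n = 3).

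The summed Argonaute level was 619.3 ± 39.67 FPKM in V-Mt VC, 412.8 ± 65.37 in WT SC, 349.0 ± 69.8 in V-Mt SC and 8.367 ± 1.797 in WT VC (SD, n = 3). Ranked among the 20668 loci listed in both tables, AGO4 lay at percentile 95.1 to 96.0 in WT LMS and 97.7 to 97.8 in V-Mt VC, but at 55.7 to 75.7 in WT SC and 18.1 to 47.9 in WT VC. AGO9 lay at 84.9, 87.3 and 90 in WT LMS, 95.6 to 97.4 in WT SC and 71.8 to 73.1 in WT VC, so its rank fell less than that of AGO4. AGO5 lay at 57.0 to 66.3 in WT LMS, 90.8 to 95 in WT SC and 54.7 to 61.6 in WT VC, so it ranked higher in WT sperm nuclei than in either other WT group. Ranks near 20 in WT VC are those of loci tied at or near 0.

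The isoform tables split these levels unevenly. In pollen, AGO3, AGO6, AGO7 and AGO10 rested wholly on the isoform that bears the locus name. The named isoform held 12.4% to 16.4% of AGO2 and 0.886% to 14% of AGO4 in V-Mt VC, at most 2.76% of AGO5, and 0% to 34% of AGO9 over the pollen libraries. AGO1 had none in pollen. The rest lay in isoforms assembled by the authors that bear no locus name: for AGO5 and for AGO9, 1 assembled isoform equalled the rest of the gene within 0.02 FPKM in all 12 pollen libraries, and for AGO8 the rest equalled 2 such isoforms. For AGO1, AGO2 and AGO4 no such match was made. In microspores the named isoforms held all of AGO2, AGO4, AGO5, AGO6, AGO7 and AGO10, 86.7% to 100.0% of AGO1 and 67.1% to 100.0% of AGO9. The AGO8 level in WT VC thus rests almost wholly on assembled models, and 0.05 FPKM was the most its named isoform had there.

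Genes that make small RNAs or act with Argonautes were listed from textbook knowledge, 39 genes in all, all with an entry in pollen, of which 30 were tested. In V-Mt VC against WT VC, 20 were called higher and 1 lower, with a median of 1.96 beside 1.92 over all entries. This is near the share over all entries, of which 62.5% were called higher, so the count is not particular to these genes. SUVH9, which recruits RNA polymerase V to methylated DNA, stood at 22.1 ± 0.284 FPKM in V-Mt VC (SD, n = 3) and at 0.66, 0.05 and 0.12 in WT VC, a log2 difference of 4.21 (SE 0.56, limma adjusted p = 4.79e-05). EMA1, an importin-like gene that limits the loading of AGO1, rose by 3.97 (SE 0.27, limma adjusted p = 2.36e-07). Outside V-Mt VC it reached 1 FPKM only in WT SC library 1 (1.24), so it passed the filter only through the group where it was high. DRM2, the methyltransferase at the end of the AGO4 pathway, rose by 3.93 (SE 0.66, limma adjusted p = 2.71e-04), and SPT5L, an elongation factor that binds AGO4, by 3.91 (SE 0.69, limma adjusted p = 4.09e-04). CLSY2, which brings RNA polymerase IV to chromatin, was the gene called lower, with 0.11, 0.07 and 0.21 FPKM in V-Mt VC and 10.2, 6.09 and 7.58 in WT VC (limma adjusted p = 1.75e-05).

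In WT SC against WT VC, 8 of the 30 tested partner genes were called higher and 1 lower, beside 27.3% and 13.1% of all entries, with a median of 0.91 beside 0.36. DRB4, which assists DCL4 in cutting double-stranded RNA, stood at 154, 91.3 and 86.5 FPKM in WT SC and at 3.82, 2.47 and 1.71 in WT VC, a difference of 4.92 (SE 0.32, limma adjusted p = 6.89e-07). CLSY4, a relative of CLSY2, rose by 2.82 (SE 0.54, limma adjusted p = 0.00174) and IDN2, an RNA-binding member of the methylation pathway, by 2.53 (SE 0.58, limma adjusted p = 0.00513), while CLSY2 fell by 2.48 (SE 0.34, limma adjusted p = 2.03e-04). CLSY2 stood at 0.28, 0.16 and 1.62 FPKM in WT SC, and CLSY4 at 5.96, 7.91 and 7.04.

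In V-Mt SC against WT SC, 0 of 30 partner genes were called higher and 1 lower, beside 1.18% and 3.93% of all entries: SGS3, which stabilises precursors of trans-acting small RNAs, was listed at 0 in V-Mt SC and stood at 10.7, 9.72 and 1.14 FPKM in WT SC (log2 difference -2.69, SE 0.55, limma adjusted p = 0.0279). Between the V-Mt nuclei, SC against VC, 4 of 30 were called higher and 18 lower, near the 13.4% and 58% of all entries, with a median of -1.79 beside -1.72. SE, a cofactor of microRNA processing, stood at 79.2, 88.2 and 78.8 FPKM in V-Mt VC and at 2.4, 1.72 and 6.09 in V-Mt SC (-4.36, SE 0.43, limma adjusted p = 4.96e-06). EMA1 (-3.97), SPT5L (-3.77) and FBW2 (-3.34), an F-box gene that lowers AGO1 protein, were also lower, each with limma adjusted p of 5.60e-04 or less. EMA1 and FBW2 passed the filter only through V-Mt VC, so their calls against that group are not independent of the filter. The difference of V-Mt effects was called higher for 22 of 30 partner genes and lower for 1, beside 60.5% and 7.18% of all entries, with a median of 2.90 beside 2.24 over all entries, and it was largest for SPT5L (5.65), SE (5.31), EMA1 (4.47) and CLSY1 (4.31). In microspores 38 of the genes were listed and 36 tested, with 0 called, and the lowest unadjusted p belonged to RDM1 (-1.07, limma adjusted p = 0.751) and FBW2 (-1.68, limma adjusted p = 0.751).

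**Figure D4:**
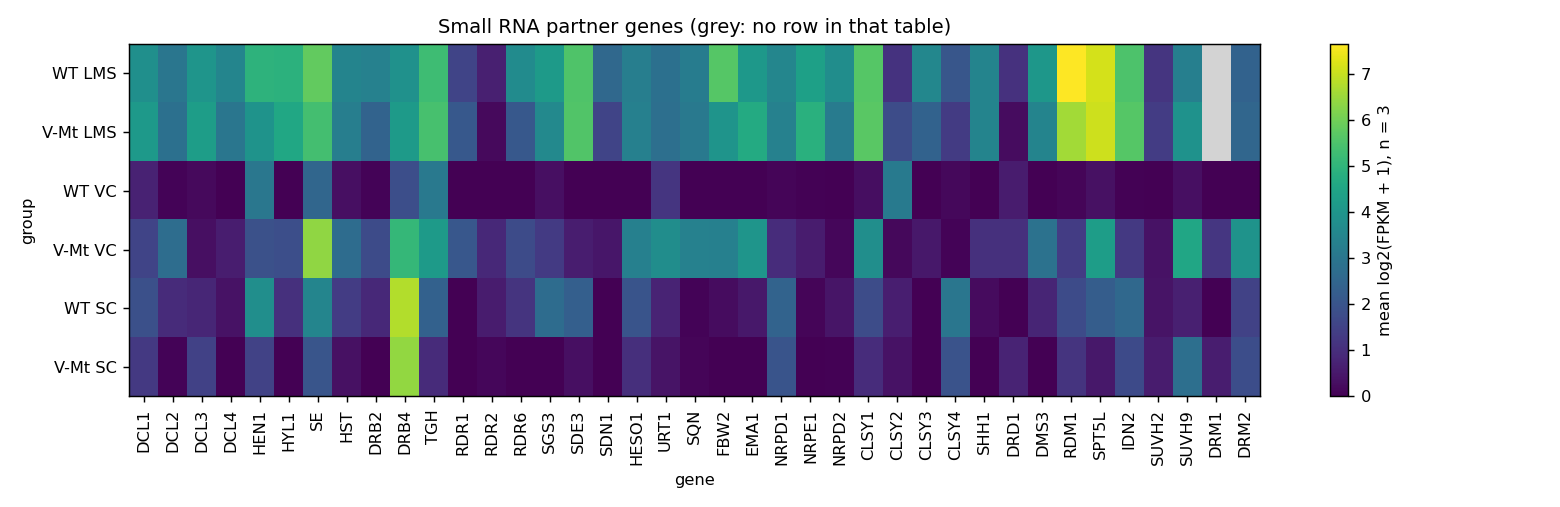
Mean log2(FPKM + 1) of 39 small RNA partner genes (columns) in the 6 groups (rows), n = 3 each; grey means no entry in that table, and microspores were normalized separately. WT VC is dark for most genes, with CLSY2 and HEN1 among the exceptions, and DRB4 is bright in both sperm groups.

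The genes with the pattern most like each Argonaute were named by Pearson correlation of log2(FPKM + 1) over the 12 pollen libraries, which fall into 4 groups, so these values are descriptions that mostly reflect group means. For AGO4 they were AT1G06900 (r = 0.996) and KNAT2 (r = 0.995), a homeobox gene of the meristem. For AGO5 they were AT3G60260 (r = 0.994) and AT2G27720 (r = 0.992), and for AGO9 they were UBC27 (r = 0.997), a ubiquitin-conjugating enzyme, and RBP47C (r = 0.994), an RNA-binding protein. For AGO2 they were ARK2 (r = 0.997) and EDA12 (r = 0.995), for AGO1 AT1G23880 (r = 0.988) and GH9B7 (r = 0.987), and for AGO6 UXS1 (r = 0.993) and AT3G62360 (r = 0.992). AGO8 was nearest to AT5G63200 (r = 0.977) and SYP123 (r = 0.975), a syntaxin of root hairs, and AGO10 to WOL (r = 0.956), a cytokinin receptor, and AT2G38905 (r = 0.949).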

How the data were processed

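The authors deposited FPKM values per gene and per isoform for pollen nuclei and, separately, for microspores. The submitters' processing notes name RSEM 1.3.1 with HISAT2 2.1.0 for both sets, StringTie 1.3.5 for pollen nuclei, and Bowtie2, with version 2.3.5 for pollen nuclei, on TAIR10. Tool settings were not given in the sources used here. From these values log2(FPKM + 1) was fitted with limma 3.58.1 (trend, R 4.3.3) after a filter of 1 FPKM in at least 3 libraries: 1 model with a mean per group over 12 pollen libraries and 1 over 6 microspore libraries, 2-sided, with Benjamini-Hochberg adjustment over all tested entries at 0.05. Fold changes on this scale understate those of low genes. In the pollen set AGO1, AGO6 and partner genes such as EMA1, FBW2, SQN and RDR1 passed the filter only with the V-Mt VC libraries counted. Their tests against V-Mt VC are therefore not independent of the filter. The files hold no counts, so depth was estimated from the steps of low FPKM values with an assumed fragment length of 250 bases. The fit was tested on simulated data. Alternatives were a pseudocount of 0.1, no filter, 3 scalings (median-ratio, quantile and sum), a replicate block, a fit on the 2 groups compared, and leaving out libraries. Named were all 10 Argonautes, up to 4 called partner genes per comparison with the largest difference (the 2 lowest p where none was called), and the 2 genes of most similar pattern. The promoters described were chosen after values were seen, and others are not reported here. The members and lists were chosen with earlier results of these data known. Sequences came from the RefSeq TAIR10.1 assembly.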

Additional observations from a re-analysis of the deposited data

Results flagged for a closer look

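The effect of the V-Mt line differed between vegetative and sperm nuclei, by the limma interaction term, for 7 of the 8 tested Argonautes. Of all 19733 tested entries, 60.5% were called higher in this contrast and 7.18% lower. The difference of effects (V-Mt against WT in VC, minus the same in SC, on the log2(FPKM + 1) scale) was 7.18 for AGO1, 8.53 for AGO2, 10.57 for AGO4, 7.01 for AGO5, 4.5 for AGO6, 4.79 for AGO9 and 3.19 for AGO10. The limma adjusted p ranged from 4.57e-07 for AGO9 to 0.00124 for AGO1, against a median of 2.24 over all tested entries. Each group held 3 libraries. Under quantile normalization the AGO10 value was 0.56 (limma adjusted p = 0.399).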

How the results depend on the processing

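The count of called Argonautes in V-Mt SC against WT SC was 3, and it was 1 under median-ratio scaling, quantile normalization, the replicate block and no filter, 0 in a fit on the 2 groups compared, and 1 without the 3 sperm libraries with most organelle FPKM, a choice made after seeing the data. Over all entries 5.11% were called in this comparison, and 4.56%, 2.44%, 3.08%, 2.15% and 0% under the first 5 of these, so the 0 is not particular to the Argonautes. In WT SC against WT VC it was 8, and 5 without those libraries. Leaving out 1 library at a time gave 7 to 8 calls for V-Mt VC against WT VC, 0 to 6 for V-Mt SC against WT SC, 5 to 8 for WT SC against WT VC, 6 to 7 for the nuclei of V-Mt, 7 for the difference of effects and 0 for microspores. Of the differences called with or without it, quantile normalization turned 3: AGO8 (-1.79) and AGO10 (-0.13) in V-Mt VC against WT VC, and AGO10 (1.16) between the nuclei of V-Mt. The difference of effects for AGO8, called in neither, went from 0.70 to -2.21. The cause was not tested. The replicate numbers showed no strong shared deviation: correlations of same-numbered deviations ran from -0.201 to 0.145. These correlations cannot tell whether same-numbered libraries came from the same pollen. The replicate block changed no other count of calls (7, 8, 6, 7 and 0). Under all alternatives run, AGO1, AGO2, AGO4, AGO5, AGO6 and AGO9 were called higher in V-Mt VC than in WT VC. AGO2, AGO4, AGO5, AGO9 and AGO10 were likewise called higher in the sperm than in the vegetative nuclei of WT. The highest limma adjusted p there was 0.0407 for AGO2, 0.0433 for AGO4 and 0.0144 for AGO10. For depth, 1 fragment on a member was worth 0.011 to 0.044 FPKM in pollen and 0.085 to 0.22 FPKM in microspores.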
